A study of Mus musculus with 5480 samples.

Results

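Immediate early genes are transcribed within minutes of a stimulus from factors that are already present in the cell, and their messages are short-lived. The 10 described here were all rows of the count table, which held 18072 genes: Fos, Fosb, Jun, Junb and Jund, whose proteins pair into the AP-1 transcription factor, Egr1, a zinc-finger transcription factor, Atf3, a stress-induced bZIP factor, Nr4a1, an orphan nuclear receptor, and Ier2 and Ier3, small immediate early proteins of which Ier3 is linked to cell survival. They were taken as listed, and the list was chosen with earlier results of these data known. Growth factors act on many of them through ERK, which activates ternary complex factors bound beside SRF, while cAMP and calcium act through CREB. Separating a tissue into single cells is a stimulus of this kind, so each gene was read per mouse and per plate.

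The cells came from the distal lung of mice, and 5409 of them had been sorted for mesenchyme, the connective tissue, muscle and vessel-wall cells. Another 69 carried a CD31 sort label and 2 a CD45 sort label. All were sequenced one by one in plates with a transposase protocol that named no molecular identifiers. The 5480 cells came from 10 mice, 1 female and 1 male in each of 5 groups: embryonic day 18.5 (E18.5), postnatal days 1, 7 and 21 (P1, P7 and P21), all labelled as normal treatment, and P7 labelled as hyperoxia, which is breathing air enriched in oxygen. No strain, oxygen level or exposure time stands in the labels. With 2 mice a group, a difference between groups is measured against the spread of 1 female and 1 male. A sex difference shared by all groups is first taken out of that spread. The labels do not say whether mice of a group were littermates. Each mouse gave 311 to 633 cells on 2 plates and 294154721 to 671766116 counted reads, with 521125 to 1084630 reads in its median cell.

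Sequencing runs were not spread evenly over the groups. In the mesenchymal sort the 4 male mice in normal air shared 1 run. Male changes with age in that sort are therefore within a run, as is the female change from E18.5 to P1. Each hyperoxia mouse had a run of its own in that sort, so hyperoxia and run cannot be told apart. Cells of other sorts, at most 18 a mouse, came in part from other runs. Mesenchymal markers summed to between 9304 and 23555 CPM, the counts of a gene scaled to the total of its library, in every mouse, and none of the 7 was at 0. Epithelial markers summed to at most 90.9 CPM, immune markers to at most 49.3, endothelial markers to at most 38.7 and erythroid markers to at most 6.85. The authors' 16 subtype names were kept. Early and later subtypes of 1 name were joined into 6 classes: alveolar and adventitial fibroblasts, myofibroblasts, airway and vascular smooth muscle (SM), and pericytes. Sums and shares of cells over a whole mouse mix all subtypes. Their makeup differed between groups and was not corrected for.

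Fos was the most abundant of the genes. The 10 genes together took 1.28% of all counted reads. Per kilobase of exon, a scale on which genes can be compared, Fos stood at 2103 ± 765 CPM (SD, n = 10 mice), Ier2 at 785 ± 308, Junb at 563 ± 238, Nr4a1 at 555 ± 302 and Egr1 at 425 ± 168. Jun, Ier3 and Atf3 followed at 240 ± 122, 220 ± 55.5 and 133 ± 148, and Fosb at 39.2 ± 16.1. Jund, which in most tissues is expressed steadily and not as an immediate early gene, was almost absent from the table at 1.30 ± 0.835. In GENCODE M21, Jund overlaps a gene on the other strand, as do Jun, Junb and Atf3. How reads in such overlaps were counted is not given in the sources used here, so the levels of these 4 genes are less certain than those of the other 6. Junb and Nr4a1 lay within each other's spread, while the SD ranges of Fos and Ier2, and those of Fosb and Jund, did not touch.

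The genes took very different shares of the reads in different mice and cells. The lowest share of reads was 0.575%, in the female P7 mouse under hyperoxia, and the highest 1.98%, in the female P21 mouse. In the median cell of the whole series they took 0.980% of reads. In 171 cells no read of any of the 10 was counted, and in 55 cells they took at least 5% of reads, up to 8.44%.

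**Figure D1:**
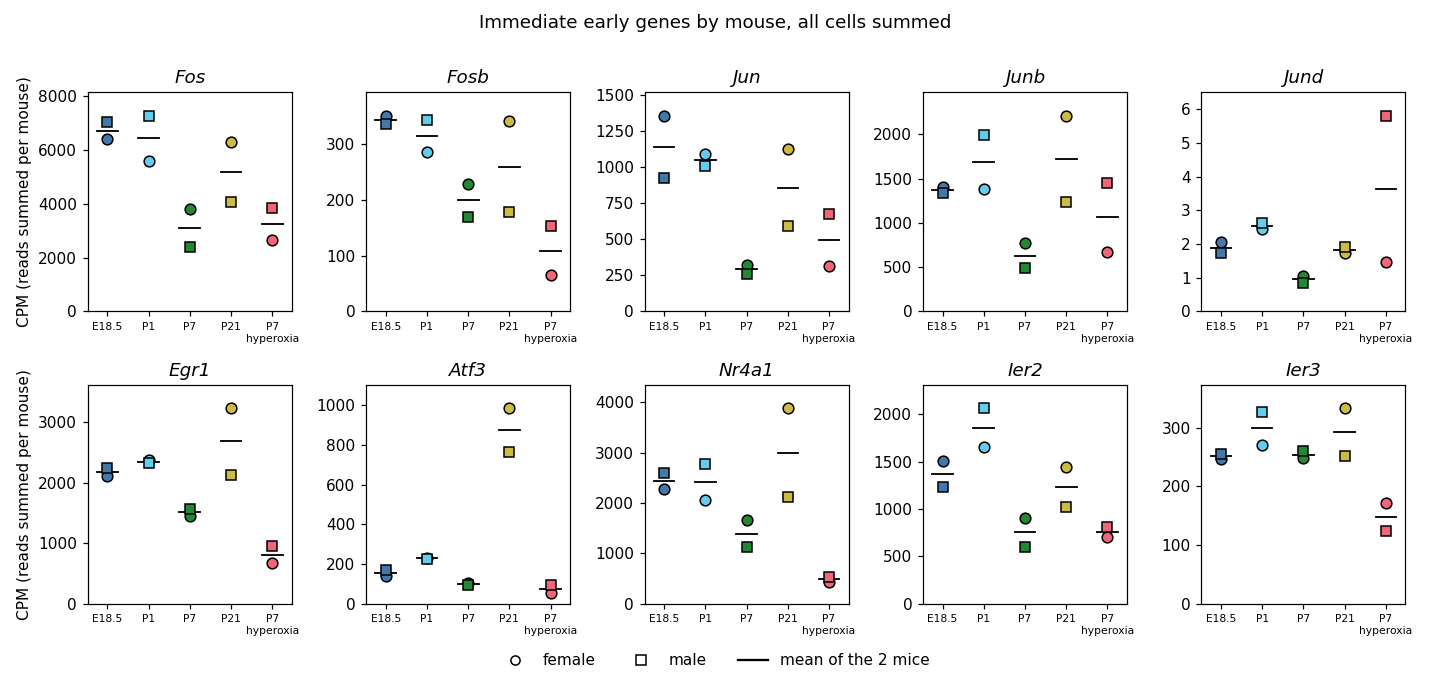
CPM of each gene in the reads summed over all cells of a mouse, by group, with 1 panel per gene and its own scale from 0. Circles are female mice, squares male mice and lines the mean of the 2 mice. In every panel both P7 mice lie below both P1 mice, and for Atf3 the P21 mice, at 986 and 765 CPM, lie far above all others.

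From E18.5 to P1 no gene passed the test. edgeR's quasi-likelihood test with Benjamini-Hochberg adjustment called 0 of 10 genes at an adjusted p under 0.05, where 1.23% of all 17283 genes tested were called. At an unadjusted p under 0.05 the count was also 0, and DESeq2 called 0. Here and below, shares of all genes called are those of edgeR's adjusted test. Counts by DESeq2 or at an unadjusted p have no such share beside them. DESeq2 called more genes than edgeR in each comparison whose total is given at the end. Fos was at 6409 CPM in the female and 7053 in the male at E18.5, against 5613 and 7279 at P1. These groups overlapped. Both P1 mice were above both E18.5 mice for 5 of the 10 genes, Jund, Egr1, Atf3, Ier2 and Ier3, which held for 21% of all genes, and none was placed the other way. The largest estimate was that of Atf3, 0.63 ± 0.29 on the log2 scale.

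From P1 to P7 all 10 estimates were negative. Fos was at 3813 CPM in the female and 2407 in the male at P7. Jun fell furthest in the estimates: it was at 1093 and 1010 CPM at P1 and at 321 and 262 at P7. Both P7 mice were below both P1 mice for all 10 genes, and this held for 19.5% of all genes tested. The log2 fold change was -1.93 ± 0.42 (SE) for Jun, -1.40 ± 0.32 for Ier2, -1.25 ± 0.29 for Atf3 and -1.13 ± 0.39 for Fos. No estimate passed the test across genes: edgeR called 0 of 10, with adjusted p from 0.106 (Jun) to 0.739 (Ier3), and it called 0.22% of all genes. At an unadjusted p under 0.05 there were 7, and DESeq2 called 5, which were Fos, Jun, Junb, Atf3 and Ier2. Within the shared run of the male mice, the log2 ratio of CPM was -1.60 for Fos, -1.94 for Jun and -2.04 for Junb. Without the female P21 mouse, which enters the estimate of the spread, edgeR called 3 of the 10, without the male P21 mouse 2, and without either hyperoxia mouse Jun alone.

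From P7 to P21 the levels were higher again, and 3 of 10 genes rose: Atf3, Jun and Junb. Atf3 was at 106 CPM in the female and 95.6 in the male at P7, and at 986 and 765 at P21, a log2 fold change of 3.34 ± 0.32 (edgeR, adjusted p = 0.000464). Jun was at 1124 and 590 CPM at P21, a log2 fold change of 1.75 ± 0.42 from P7 (adjusted p = 0.0291). Junb went from 774 and 485 CPM to 2211 and 1234, a log2 fold change of 1.66 ± 0.45 (adjusted p = 0.0443). In each of the 3 genes the groups did not overlap. Among all genes 9.97% were called, and 5.39% were called higher. All 10 estimates were positive, with a median of 1.09 against 0.03 over all genes, and both P21 mice stood above both P7 mice for 8 genes, which held for 20.4% of all genes. Nr4a1, with a log2 fold change of 1.32 ± 0.37 (adjusted p = 0.0525), and Egr1, with 1.05 ± 0.31 (adjusted p = 0.0613), lay just outside the threshold. DESeq2 called 7 of the 10.

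These P21 values depended on the mice and the scaling. Without the female P21 mouse edgeR called only Atf3 and without the male P21 mouse 5 of the 10, and leaving out either P7 mouse left 1. Libraries at P21 received low scaling factors, so the estimates are relative to a shift: without scaling factors the median over all genes moved from 0.03 to -0.19, Jun and Atf3 were called, and 728 of 2042 called genes were higher instead of 932 of 1723. Within the male run, the log2 ratio of CPM from P7 to P21 was 1.17 for Jun and 1.35 for Junb.

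**Figure D2:**
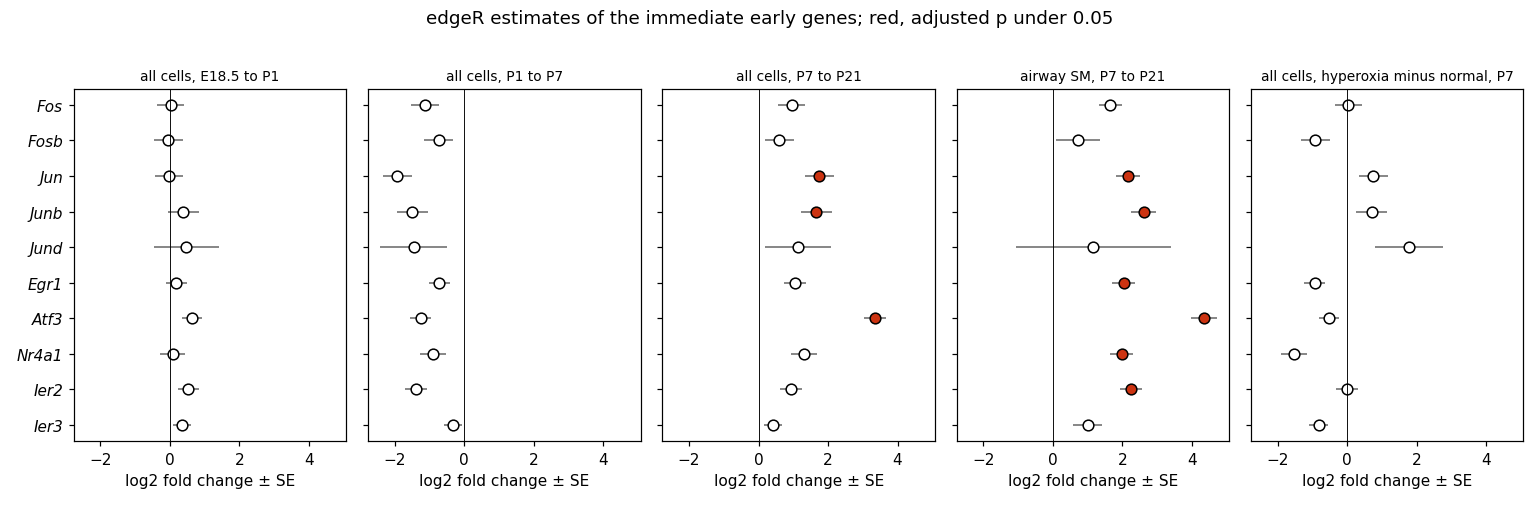
edgeR log2 fold changes with SE for the 10 genes in 5 comparisons, with red points for an adjusted p under 0.05. All 10 points lie left of 0 from P1 to P7 and right of 0 from P7 to P21, in all cells and in airway SM, while under hyperoxia they lie on both sides.

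The share of cells with a read was lower at P21 than at P7 for some genes and higher for others. Each cell was thinned to 100000 reads, which left out 168 shallower cells, to compare the share of cells with at least 1 read. Fos had a read in 95.3% of cells of the female and 95.1% of the male at E18.5, in 92.2% and 94.5% at P1, in 87.2% and 80.8% at P7, and in 76.6% and 61.9% at P21. The 95% Wilson intervals, which cover counting error only, ran from 72.7% to 80.0% in the female and from 56.3% to 67.2% in the male P21 mouse. The male interval lay below those of all other mice, and the female interval overlapped that of the male P7 mouse, from 77.3% to 83.9%. Egr1 showed the same order, with 77.9% and 65.2% of cells at P21 against 87.8% and 84.3% at P7. Atf3 went the other way, with 42.6% and 29.8% at P21 against 18.9% and 18.5% at P7, though the male hyperoxia mouse, at 28.5%, was close to the male P21 mouse. Jun had a read in 74.2% and 59.6% of cells at P21 against 62.0% and 59.0% at P7, and Jund in 14.3% and 12.3% against 10.6% and 7.86%. Junb, the third gene called higher in level, had a read in 74.8% and 62.3% at P21 against 78.7% and 69.3% at P7, so of the 3 called genes Atf3 and Jun had higher shares in each sex and Junb lower ones. The P21 cells were also the most unequal: the 10 genes took 0.0134% of reads in the cell at the 10th percentile of the female P21 mouse and 4.71% at the 90th, against 0.154% and 2.64% in the female P1 mouse. Without thinning the mean share over mice was 86.7% instead of 86.0% for Fos, but 51.6% instead of 16.9% for the scarce Jund, so a share of cells with Jund follows depth. Striated muscle, with Fos at 142 CPM, had too few cells for a background share.

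**Figure D3:**
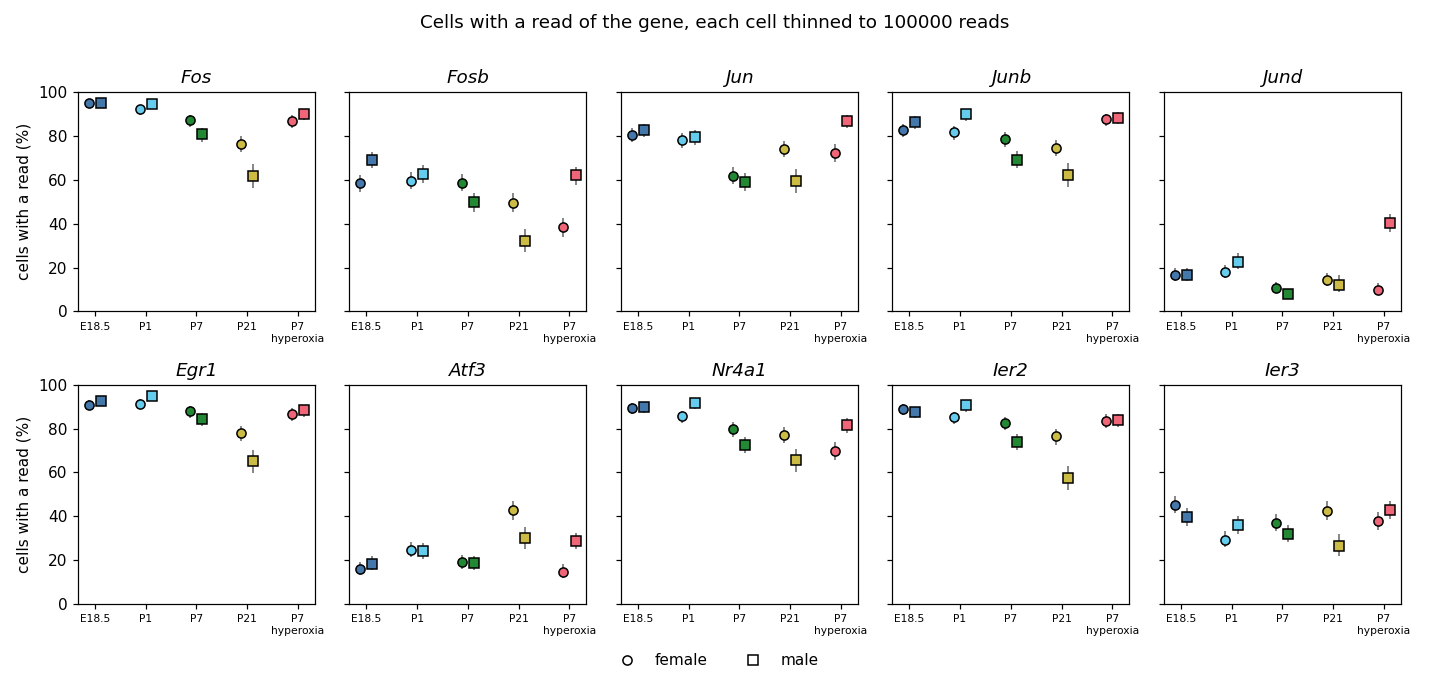
Percent of cells with at least 1 read of each gene after thinning every cell to 100000 reads, by group. Circles are female mice, squares male mice and bars 95% Wilson intervals; for Fos and Egr1 the 2 P21 mice are the lowest points, and for Atf3 the female P21 mouse is the highest.

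Muscle cells of the airway held the highest mean level of 7 of the 10 genes. Over the mice with at least 10 cells of a class, Fos was at 6990 ± 3361 CPM (SD, n = 8) in airway SM, 6212 ± 2647 (n = 10) in adventitial fibroblasts, 6044 ± 2345 (n = 8) in vascular SM, 3740 ± 2067 (n = 10) in alveolar fibroblasts, 2967 ± 685 (n = 6) in myofibroblasts and 2611 ± 1587 (n = 8) in pericytes. Egr1, Junb, Nr4a1, Atf3, Ier2 and Ier3 also had their highest mean in airway SM, and Jun, Fosb and Jund in adventitial fibroblasts. Within mice, Atf3 was higher in airway than in vascular SM in 3 of 8 and Fos in 4. Egr1, Junb, Nr4a1, Ier2 and Ier3 were higher in 6 to 8. The median of Atf3 was 394 CPM in airway and 405 in vascular SM. Ier2 was at 1461 ± 879 CPM in airway SM and 1453 ± 638 in adventitial fibroblasts. Ier3 was at 717 ± 413 CPM in airway SM and 470 ± 172 in myofibroblasts, and at 112 to 238 in the other 4 classes. The ages of the mice differ between classes, since no mouse had enough myofibroblasts at E18.5 or P21. Fos in airway SM, adventitial fibroblasts and vascular SM lay within its spread. Ier3 in myofibroblasts and in vascular SM, the next class at 238 ± 93.6, differed by more than either SD. Only the 5 contrasts that follow were tested, within mice.

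Adventitial fibroblasts, which surround airways and vessels, exceeded alveolar fibroblasts in all 10 estimates. edgeR, with each mouse as a block, called 5 genes higher and none lower, where 6.91% of all 15176 genes tested were called and 4.59% were called higher. Fos was higher by 0.81 ± 0.23 on the log2 scale (adjusted p = 0.0212), in 9 of 10 mice. Jun was higher by 0.99 ± 0.27 (adjusted p = 0.0152), Egr1 by 0.92 ± 0.25 (adjusted p = 0.0156) and Junb by 0.96 ± 0.31 (adjusted p = 0.0455). The difference was greatest for Atf3, at 435 ± 325 CPM in adventitial and 75.6 ± 96.4 in alveolar fibroblasts, higher in 10 of 10 mice. Atf3 in alveolar fibroblasts was between 0 and 273 CPM, with 0 in the female E18.5, 5.49 in the male P7 and 5.17 in the female hyperoxia mouse. The size of its log2 fold change, 3.43 ± 0.83, is therefore uncertain. At least 20 cells per mouse, which drops the E18.5 libraries with fewer, left 2 of the 5 calls, and leaving out single mice left 2 to 6. Leaving out the female E18.5 or the male P7 mouse left 2.

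Pericytes, the mural cells of capillaries, stood below vascular SM in all 10 estimates. Ier2, which was not called, was nonetheless higher in pericytes in 4 of 6 mice. Its median difference in log2(CPM + 1) was 0.25 and its lowest -3.41. Of the 10 genes, 5 were lower and none higher, where 10.8% of all genes were called and 5.86% were called lower. For Fos the log2 difference was -1.68 ± 0.28 (edgeR, adjusted p = 3.44e-05), in 6 of 6 mice. The other calls were Fosb at -1.28 ± 0.36, Egr1 at -0.91 ± 0.30, Ier3 at -1.56 ± 0.46 and Atf3 at -3.78 ± 0.98. Atf3 was at 0 CPM in the pericytes of the male P1 mouse and at 0.0498 in those of the female P7 mouse, so its size is uncertain. Leaving out single mice left 3 to 6 calls.

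Myofibroblasts, which carry Pdgfra and lay down elastin in forming septa, had less Jun and more Ier3 than alveolar fibroblasts. Jun was at 234 ± 103 CPM (n = 6) in myofibroblasts, and its difference was -0.97 ± 0.32 on the log2 scale (edgeR, adjusted p = 0.0481), lower in 6 of 6 mice. Ier3 was higher by 1.94 ± 0.44 (adjusted p = 0.00242), in 6 of 6 mice. These were the 2 calls among the 10 genes, where 7.76% of all genes were called. Jun lost its call without the female P21 mouse or without any 1 of the P1, P7 and hyperoxia mice, and Ier3 held in each of these fits.

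Airway SM was compared with the other contractile classes. Against vascular SM, airway SM had more Ier2, by 0.99 ± 0.31 on the log2 scale (edgeR, adjusted p = 0.0426), in 8 of 8 mice, and this was the only call among the 10 where 7.1% of all genes were called. Without any 1 of the female P21, the P1, the P7 and the hyperoxia mice it was lost. Against myofibroblasts, airway SM had more Fos, by 1.23 ± 0.29 (adjusted p = 0.0271), and more Jun, by 1.31 ± 0.34 (adjusted p = 0.0457), both in 6 of 6 mice, where 0.929% of all genes were called. In the 6 mice with both classes the median differences in log2(CPM + 1) were smaller, 0.82 for Fos and 0.91 for Jun. The P21 mice had too few myofibroblasts and enter the fit through their other classes. Both calls were lost without the female P21 mouse or any 1 of the P1, P7 and hyperoxia mice, with directions unchanged.

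**Figure D4:**
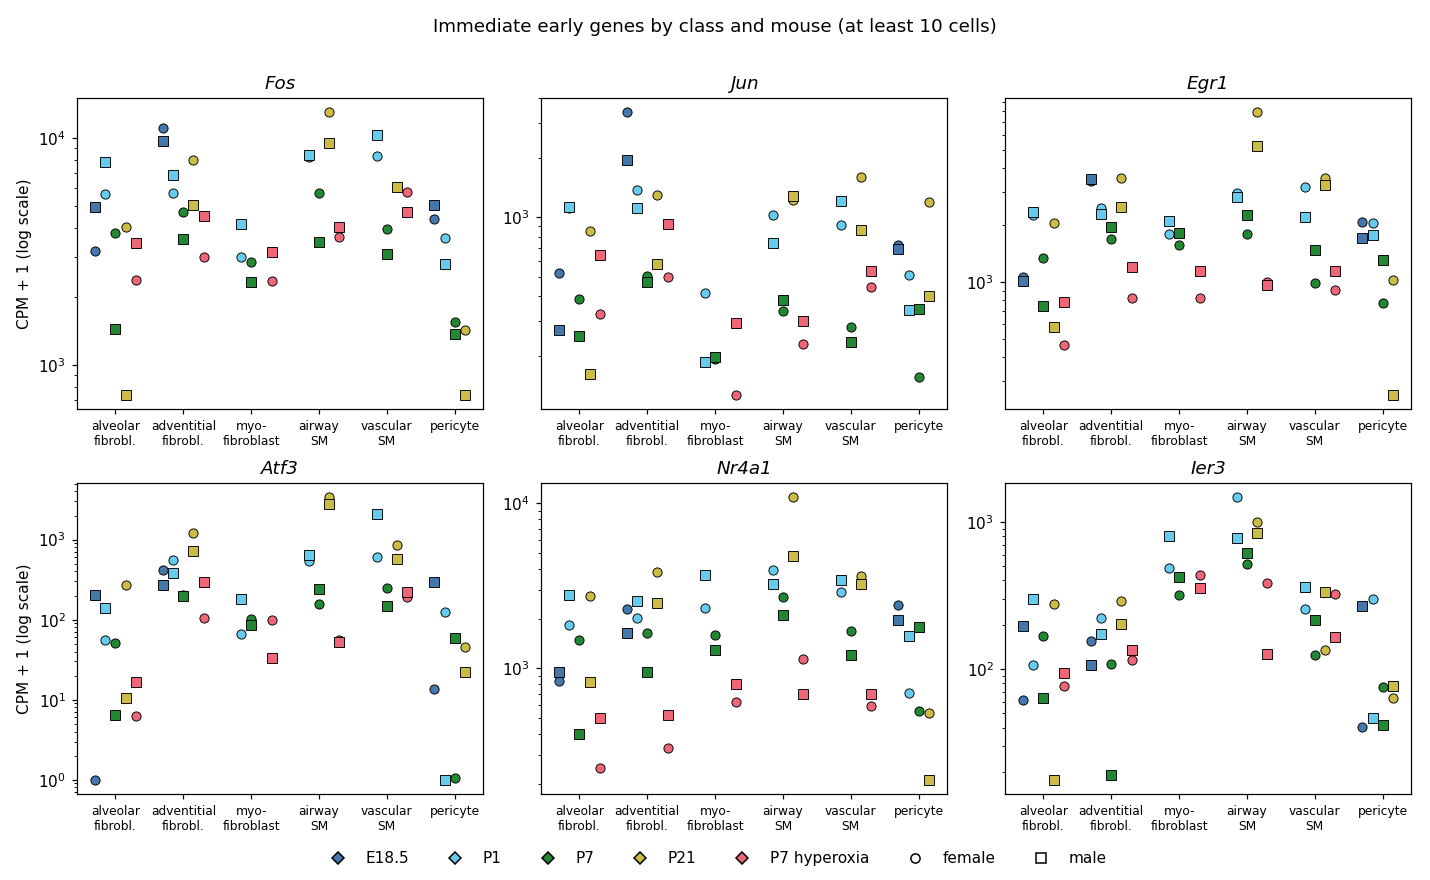
CPM + 1 on a log scale for 6 of the genes by class, with 1 point per mouse with at least 10 cells of the class. Colours are groups, circles female and squares male mice; in airway SM the P21 mice are the highest points for Fos, Egr1, Atf3 and Nr4a1, and for Nr4a1 the 2 hyperoxia mice, at 1143 and 694 CPM, are the lowest.

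The authors' subtypes were compared by level, with no test. Airway SM cells of the 2 P21 mice had 11821 ± 2535 CPM of Fos (SD, n = 2), the highest of the subtypes, and early airway SM cells of the younger mice had 5580 ± 2257 (n = 6). The precursors of myofibroblasts and SM at E18.5 followed with 8029 ± 425 (n = 2) and led for Jun, at 1980 ± 705. Fibroblast precursors at E18.5 had 6372 ± 825 CPM of Fos and 17.4 ± 17.6 of Atf3, where the contractile precursors had 616 ± 43.6. The 16 striated muscle cells of 1 P21 mouse had the lowest level of Fos, 142 CPM, and of Egr1, 17.5 CPM.

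Among the classes, airway SM alone had calls from P7 to P21. In it 6 of 10 genes rose from P7 to P21, Jun, Junb, Egr1, Atf3, Nr4a1 and Ier2, where 1.13% of all 13496 genes tested were called and 0.734% were called higher. Atf3 was at 157 and 243 CPM in the female and male P7 mice and at 3423 and 2822 at P21, a log2 fold change of 4.34 ± 0.38 (edgeR, adjusted p = 0.00261). Junb went from 1076 and 814 CPM to 5356 and 3684, a log2 fold change of 2.61 ± 0.36 (adjusted p = 0.0133). Egr1 went from 1799 and 2248 CPM to 7894 and 5228, a log2 fold change of 2.04 ± 0.33 (adjusted p = 0.0210). None of these groups overlapped, and both P21 mice were above both P7 mice for 9 of the 10 genes, which held for 13.9% of all genes. Fos, at 12937 and 9504 CPM at P21 against 5704 and 3483 at P7, had an unadjusted p of 0.000758 and missed the adjusted threshold.

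The number of calls in airway SM followed single mice. Without the female P7 mouse, or without the male, only Atf3 was called, as on each plate alone and with only the 4 mice compared. Without the female P1 mouse 4 of the 6 were called. With cells weighted equally, in limma, none was, and DESeq2 called 7. Without scaling factors 4 were called, the median over all genes moved from -0.09 to -0.44, and 73 of 157 called genes were higher instead of 99 of 152. All 10 estimates stayed positive without scaling factors.

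In the other classes no gene passed the test from P7 to P21, though the direction was shared by the muscle and adventitial cells. edgeR called 0 of 10 in adventitial fibroblasts (0.124% of all genes), vascular SM (0.0886%), alveolar fibroblasts (0.0702%) and pericytes (0.0504%). DESeq2 called 4 in adventitial fibroblasts, 5 in vascular SM and 0 in the other 2 classes. At an unadjusted p under 0.05 there were 8 in adventitial fibroblasts, 8 in vascular SM, 0 in alveolar fibroblasts and 2 in pericytes. No share over all genes stands beside the counts by DESeq2 or at an unadjusted p, so they are not read as a result about the 10 genes. Both P21 mice were above both P7 mice for 9 of 10 genes in adventitial fibroblasts and 9 of 10 in vascular SM, against 20% and 14.9% of all genes. In alveolar fibroblasts no gene was so placed (15.8% of all genes). The 2 P21 mice lay far apart there, and Fos was at 4049 CPM in the female and 734 in the male. Pericytes moved in both directions: both P21 mice were above both P7 mice for 2 of 10 genes, Jun and Jund (23.7% of all genes), and below for 2, Nr4a1 and Ier2 (17.1%). Jun was at 1194 and 401 CPM at P21 against 155 and 342 at P7, and Nr4a1 was at 536 and 210 against 551 and 1780. Whether the change from P7 to P21 differs between classes was not tested.

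From P1 to P7 the estimates were negative in nearly every class, and edgeR called 0 of 10 in all 6, where it called 0% of all genes. Both P7 mice were below both P1 mice for all 10 genes in vascular SM (15.6% of all genes), for 9 in alveolar fibroblasts (21.2%), 9 in adventitial fibroblasts (22.9%) and 9 in airway SM (14.8%), for 6 in myofibroblasts (14.3%) and for 5 in pericytes (16%). Jun in vascular SM was at 915 and 1208 CPM at P1 and at 279 and 233 at P7. At an unadjusted p under 0.05 there were 7 of 10 in vascular SM, 5 in airway SM, 5 in adventitial fibroblasts, 4 in alveolar fibroblasts, 3 in myofibroblasts and 3 in pericytes. DESeq2 called 4 in vascular SM, 4 in airway SM and 2 in myofibroblasts. These counts and those at an unadjusted p have no share over all genes beside them.

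Across birth no gene passed the test in any class. In alveolar fibroblasts both P1 mice were above both E18.5 mice for 8 of 10 genes, which held for 48.5% of all genes, with Junb at 470 and 203 CPM before and 1318 and 2083 after birth. In adventitial fibroblasts both P1 mice were below both E18.5 mice for 5 of 10 genes (15.3% of all genes), with Fos at 11054 and 9672 CPM before and 5704 and 6831 after. In that class the female had 8 of 10 genes lower after birth and the male 5. edgeR called 0 of 10 in alveolar fibroblasts (6.16% of all genes), adventitial fibroblasts (0.17%) and pericytes (0.042%), and at an unadjusted p under 0.05 there were 3, 2 and 0. The classes rest on 14 to 29 cells a mouse at E18.5, and the difference between them was not tested.

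Under hyperoxia Nr4a1, Egr1, Ier3, Fosb and Atf3 were at their lowest whole-mouse levels of all groups, and no gene passed the test. The female and male at P7 in normal air had 1657 and 1120 CPM of Nr4a1, and those under hyperoxia 430 and 539, a log2 fold change of -1.54 ± 0.38 (edgeR, adjusted p = 0.149). Egr1 was at 670 and 948 CPM against 1454 and 1558, a log2 fold change of -0.93 ± 0.31 (adjusted p = 0.273). Ier3 was at 172 and 123 CPM against 248 and 260, a log2 fold change of -0.82 ± 0.26 (adjusted p = 0.256). None of these 3 overlapped between the groups, and both hyperoxia mice were below both P7 mice for 5 of the 10 genes, which held for 22.6% of all genes. edgeR called 0 of 10, where it called 0.243% of all genes. Nr4a1, Egr1 and Ier3 were at an unadjusted p under 0.05, and DESeq2 called Egr1 and Nr4a1. Without the female P21 mouse edgeR called Nr4a1.

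The AP-1 genes did not share 1 direction. Fosb was at 64.8 and 153 CPM under hyperoxia against 228 and 170 in normal air, without overlap, at a log2 fold change of -0.91 ± 0.42 (adjusted p = 0.419). Under hyperoxia Jun was at 312 CPM in the female and at 674 in the male, with 321 and 262 in normal air, and Junb at 674 and 1451 against 774 and 485. For both genes the hyperoxia male lay above the mice in normal air and the female between them. Fos lay between 2669 and 3853 CPM under hyperoxia and between 2407 and 3813 in normal air. Jund was at 5.80 CPM in the male hyperoxia mouse, the highest of all mice, and had a read in 40.1% of its thinned cells against 7.86% to 22.8% in the others. The mesenchymal sort of each hyperoxia mouse is its own sequencing run, so mouse, run and sex cannot be told apart in these differences.

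The Nr4a1 estimate was negative in each of the 5 classes tested. Its log2 fold change under hyperoxia was -1.38 ± 0.74 in alveolar and -1.75 ± 0.40 in adventitial fibroblasts, -1.08 ± 0.38 in myofibroblasts, -1.45 ± 0.33 in airway SM and -1.39 ± 0.41 in vascular SM. Egr1 was between -1.06 and -0.51 in the same classes. In alveolar fibroblasts the 2 sexes went apart: 9 of 10 genes were lower under hyperoxia in the female and all 10 higher in the male, where Nr4a1 went from 399 to 501 CPM. In airway SM, Atf3 was at 54.8 and 51.2 CPM under hyperoxia against 157 and 243, the furthest estimate at -1.92 ± 0.34. edgeR called 0 of 50 tests of a gene in a class and 0% of all genes in each of the 5 classes, with 11 tests at an unadjusted p under 0.05 and 4 called by DESeq2. A test of the interaction, which asks whether the effect of hyperoxia differs between adventitial fibroblasts or myofibroblasts and alveolar fibroblasts, called 0 of 10 genes and 0% of all genes in both. Its lowest unadjusted p was 0.0143, for Ier3 in adventitial against alveolar fibroblasts, a difference of 1.76 ± 0.47 that DESeq2 called.

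No gene passed the test between female and male mice. Estimates of male against female ran from -0.14 for Ier2 to 0.34 for Jund on the log2 scale. edgeR called 0 of 10 and 0.00579% of all genes, there were 0 at an unadjusted p under 0.05, and DESeq2 called 0. Pairs within a group differed more than this: for Fos, Fosb, Jun and Junb the female was higher at P7 and at P21, and the male was higher under hyperoxia.

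No gene passed the test between the 2 plates of a mouse. Both plates hold cells of the same animal and can share its dissociation, so an effect of dissociation was not tested here. The mean difference of plate 2 against plate 1 over 10 mice ran from -0.22 ± 0.46 (SD) for Ier3 to 0.19 ± 0.34 for Nr4a1 on the log2(CPM + 1) scale. An exact two-sided sign-flip permutation test over the mice gave p from 0.104 to 0.963, where 0.00195 is the smallest p the 10 mice allow. edgeR with mouse as a block called 0 of 10 genes and 0% of all 15028 genes tested, 0 of the 10 were at an unadjusted p under 0.05, and DESeq2 called 0. Within single mice the plates differed by up to 0.590 for Fos and 0.383 for Egr1, against ranges over mice of 1.60 and 2.27. For Ier3 a plate pair differed by up to 1.27 and the mice by 1.43, so in that gene the plates of 1 mouse varied nearly as much as the mice.

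**Figure D5:**
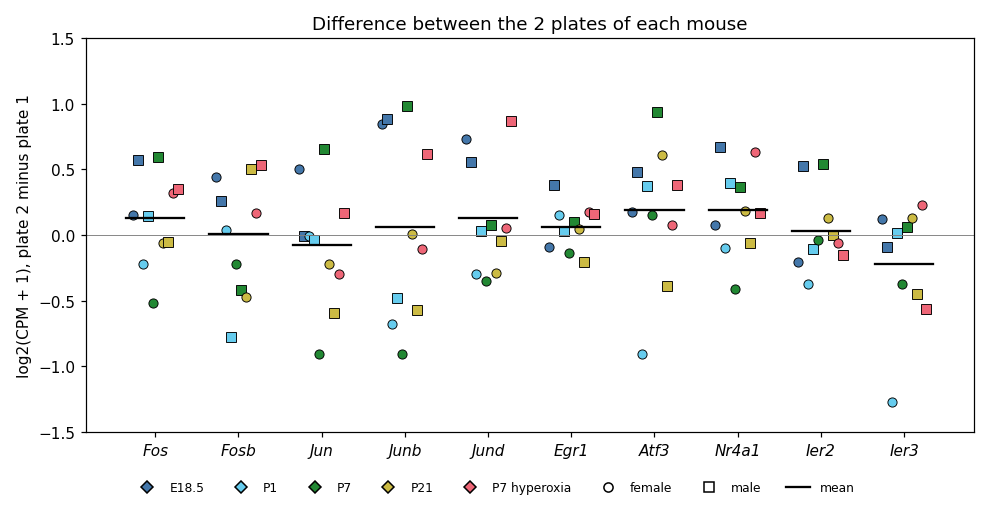
Difference in log2(CPM + 1) between plate 2 and plate 1 of each mouse, by gene. Each mouse is 1 point, coloured by group, and black lines are means over the 10 mice, which all lie between -0.22 and 0.19; the lowest Ier3 point is the female P1 mouse.

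Other genes of the same early response moved with the 10. Of 43 further immediate early and early feedback genes, edgeR called 3 lower and none higher from P1 to P7: Zfp36, which destabilizes messages of this kind (log2 fold change -2.28 ± 0.35), Cebpd (-2.20 ± 0.34) and Bhlhe40 (-2.01 ± 0.30). Their median was -0.86 against 0.01 over all genes. From P7 to P21, 22 of the 43 rose and none fell, with a median of 1.36 against 0.03 over all genes. Errfi1, an inhibitor of the EGF receptor, had the largest change of the list (3.72 ± 0.33), followed by Bhlhe40 (3.09 ± 0.31), Egr2 (2.43 ± 0.52) and Myc (2.34 ± 0.33). In airway SM 12 of the 43 rose, Errfi1 by 5.60 ± 0.45. Under hyperoxia none of the 43 was called, 11 were at an unadjusted p under 0.05 and the median was -0.17.

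Heat shock and chaperone genes were higher at P21 as well, so the levels of the early genes there stand beside a second stress-induced list. Of 12 such genes 4 rose from P7 to P21, where 5.39% of all genes were called higher. Of the 7 mesenchymal markers 4 rose in the same fit, Pdgfrb, Pdgfra, Col3a1 and Col1a1, with a list median of 1.19 against 0.93 for the heat shock genes. Hspa1a, an inducible Hsp70, was at 20.0 and 16.9 CPM at P7 and at 953 and 647 at P21, a log2 fold change of 5.65 ± 0.43. Dnajb1, its co-chaperone, was at 270 and 236 CPM at P7 and at 1420 and 1367 at P21. The whole list summed to 7651 to 8722 CPM in the P21 mice and to 3519 to 5264 in the others. From P1 to P7, when the 10 genes had all been lower, none of the 12 was called and 3 were at an unadjusted p under 0.05. What part dissociation or stress had in the P21 levels was not tested.

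In whole mice no call was made among the kinases and factors upstream of these genes. Of 17 tested genes for ERK, JNK and p38 kinases, ternary complex factors, SRF, its cofactors and CREB proteins, edgeR on the whole-mouse sums called none from E18.5 to P1, P1 to P7, P7 to P21 or under hyperoxia. Their medians were -0.09, 0.12, 0.06 and 0.19, and 1, 2, 2 and 1 of them were at an unadjusted p under 0.05. In the classes Crem, a CREB family gene, was called higher in alveolar fibroblasts from E18.5 to P1 (8.95 ± 1.46, adjusted p = 0.0289), the only call of this list by age or hyperoxia. In that comparison 6.16% of all genes were called, and the E18.5 libraries held only 14 and 24 cells, so the size is uncertain. Between classes Map2k1, which encodes the ERK kinase MEK1, was called higher in pericytes than in vascular SM (1.90 ± 0.35), and it was called lower in adventitial fibroblasts and in myofibroblasts than in alveolar fibroblasts (-1.24 ± 0.30 and -1.31 ± 0.36). Elk3, a ternary complex factor gene, was called higher in both of these classes than in alveolar fibroblasts (1.69 ± 0.52 and 2.11 ± 0.57). Mapk9, a JNK gene, was called higher in myofibroblasts than in alveolar fibroblasts (1.47 ± 0.40). Among all genes, 10.8% were called between pericytes and vascular SM, 6.91% between adventitial and alveolar fibroblasts and 7.76% between myofibroblasts and alveolar fibroblasts.

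Most of the 10 genes rose and fell together over mice and classes, most closely around Fos and Egr1. Over the 50 libraries of a mouse and class, which share mice, Pearson's r of log2(CPM + 1) with the mean of the other 9 was 0.90 for Fos, 0.88 for Egr1 and 0.85 for Junb, and lowest for Ier3 at 0.48 and Jund at 0.41. Egr1 and Nr4a1 formed the closest pair, with r of 0.89. Pairs with Jund or Ier3 were the loosest, down to 0.06 for Jund with Nr4a1 and 0.08 for Fosb with Ier3. Of 9245 further genes ranked by likeness to the mean of the 10, the closest were Zfp36 (r = 0.88), Btg2 (0.86), Csrnp1 (0.78) and Cyr61 (0.77), followed by Socs3, Zfp36l1, Irf1, Bhlhe40, Fosl2 and Klf4 at 0.67 to 0.69. Between cells of 1 mouse and class some pairs were close and others loose. In the 26 libraries with at least 50 cells, the median r over cells was 0.69 between Fos and Egr1 and between Fos and Junb. It was 0.61 between Egr1 and Ier2, and lowest between Jund and Ier3, at 0.12. These values are descriptions, and depth per cell enters each of them.

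The start regions of 5 of these genes hold letters known from sites of CREB and ATF proteins, and 4 of them are shown because the genes moved together. RefSeq promoter sequences of GRCm38.p6 were found for 8 of the 10 genes. The letters TGACG, the half-site of the cAMP response element, were searched on both strands in the 250 bases before each start. They were present in Fos, Fosb, Junb, Atf3 and Nr4a1, 5 of 8 genes, and in 19.8% of all 27025 promoters. TATAAA was found in Fos alone (14.3% of promoters) and GGGCGG in 6 of 8 (35.4%). The full element TGACGTCA (1.77%), the AP-1 site TGANTCA (7.82%) and the CArG box of SRF (1.62%) were found in 0 of 8, which says only that these letters are not in these windows. A match is a description and not a bound site. The 4 sequences below run 5′ to 3′ on the strand of the gene and end at the base before its start, with TGACG or its complement and TATAAA in capitals. They are Fos at chr12:85473640-85473889 (+), Junb at chr8:84978749-84978998 (-), Atf3 at chr1:191183334-191183583 (-) and Nr4a1 at chr15:101266596-101266845 (+).
Fos: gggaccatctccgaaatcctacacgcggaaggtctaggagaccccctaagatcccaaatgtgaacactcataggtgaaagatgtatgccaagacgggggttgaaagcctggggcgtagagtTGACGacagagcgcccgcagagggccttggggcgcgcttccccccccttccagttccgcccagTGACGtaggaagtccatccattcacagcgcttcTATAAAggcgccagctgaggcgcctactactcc
Junb: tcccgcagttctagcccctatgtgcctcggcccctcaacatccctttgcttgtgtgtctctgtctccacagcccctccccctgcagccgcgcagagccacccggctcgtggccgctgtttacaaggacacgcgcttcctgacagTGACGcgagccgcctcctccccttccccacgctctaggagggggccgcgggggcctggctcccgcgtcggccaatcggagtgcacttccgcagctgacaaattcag
Atf3: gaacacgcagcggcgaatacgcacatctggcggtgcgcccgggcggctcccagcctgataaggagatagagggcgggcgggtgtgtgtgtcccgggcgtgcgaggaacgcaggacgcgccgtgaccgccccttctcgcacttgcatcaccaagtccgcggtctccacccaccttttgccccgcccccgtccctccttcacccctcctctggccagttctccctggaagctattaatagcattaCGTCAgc
Nr4a1: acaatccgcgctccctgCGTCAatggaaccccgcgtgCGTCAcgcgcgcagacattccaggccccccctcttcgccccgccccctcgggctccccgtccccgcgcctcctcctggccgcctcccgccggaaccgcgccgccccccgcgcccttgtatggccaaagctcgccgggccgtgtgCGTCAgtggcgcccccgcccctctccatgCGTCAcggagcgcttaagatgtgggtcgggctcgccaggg
In Fos the half-sites begin 129 and 66 bases before the start and TATAAA 33 bases before it. Nr4a1 has 4 half-sites, the nearest beginning 40 bases before the start, Junb 1 at 106 bases and Atf3 1 at 7 bases. These 4 genes include Atf3 and Junb, called at P21. Nr4a1 and Atf3 were among the genes with their lowest whole-mouse levels under hyperoxia, as was Fosb, which has a half-site and is not shown. Ier3 was at its lowest there too and has no half-site in its window. For Egr1, also at its lowest, no promoter sequence was found. Whether the half-sites bear on any of these levels was not tested. Jun, also called at P21, has no half-site in its window.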

How the data were processed

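Read counts per gene and cell were deposited by the authors with their cell annotation, which gives the mouse, plate, sort and subtype of each cell. Per the submitters' processing notes, STAR 2.5.2b and HTSeq 0.10 were used, and the build named is GRCh38, a human build, so no position was taken from the counts. The 10 genes and all gene lists were chosen with earlier results of these data known. The rule for naming genes was that all 10 are described, with up to 4 genes of a wider list in a comparison and the 10 genes most like their mean.

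Counts were summed over all cells of a mouse, of a mouse and class with at least 10 cells, or of a mouse and plate. Cells of other sorts were kept, and 0 columns were left unused. The sums were tested in R 4.3.3 with edgeR 4.0.16 (quasi-likelihood, two-sided, TMM scaling, filterByExpr, Benjamini-Hochberg over all genes tested) with terms for group and sex, or with mouse as a block between classes and plates. All groups shared 1 estimate of the spread. A call is an adjusted p under 0.05, and all 10 genes passed the filter in the comparisons reported. DESeq2 1.42.0, limma 3.58.1 on log2(mean CPM over cells + 1), other scaling and filters, each plate and each left-out mouse were alternatives. Dropping the scaling factors and both hyperoxia mice were added after seeing the data. The code was tested on simulated data. Without molecular identifiers reads are not independent molecules, so intervals cover counting error only. Between groups, p-values measure the spread between 1 female and 1 male a group that remains after a sex difference shared by all groups. Between classes and plates, they measure how the difference varies over mice.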

Additional observations from a re-analysis of the deposited data

Results flagged for a closer look

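For Ier3, plate 2 of the female P1 mouse was below plate 1 by more than in any other mouse, a log2 difference of -1.271. Its gap to the next of the 10 mice was 0.470 of the whole range, above Dixon's critical value for 10 values. The plates held 388 and 160 CPM. One value was flagged among 10 groups tested, and chance flags about 1 in 20 groups.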

How the results depend on the processing

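With 2 mice a group, the counts of calls moved with the tool and with single mice, and no estimate with a call changed sign. The 3 calls by age in whole mice became 12 with DESeq2, 7 with only the mice compared and 1 on plate 2 alone, and 1 to 7 when single mice were left out. The 6 calls by age in the classes became 26 with DESeq2, 1 with limma, 2 on plate 1 alone and 3 with only the mice compared, and 1 to 7 with single mice left out. The 15 calls between classes became 5 on plate 1 alone, 8 on plate 2 alone and 8 with at least 20 cells a mouse, and 8 to 15 with single mice left out. From 0 calls under hyperoxia, DESeq2 gave 2 in whole mice, 4 in the classes and 1 for the difference between classes, and leaving out single mice gave 0 to 1 in each. Sex and plate stayed at 0 in every setting. The cause of these changes was not tested.

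Sex is the replicate label that all 5 groups share, and no label ties it to a litter or day. In the mesenchymal sort the 4 males in normal air share a run, as do the females at E18.5 and P1. Without sex as replicate block there were 5 calls by age in whole mice, and without the mouse as replicate block 4 between classes.

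Counts over all genes moved as well. In whole mice the 213 genes called from E18.5 to P1 became 1138 with DESeq2, 340 with limma, 438 with only the mice compared, and 92 and 65 on plates 1 and 2. The 38 called from P1 to P7 became 952, 275, 338, 2 and 3 in the same settings, 105 without the replicate block and 58 without scaling factors. The 1723 called from P7 to P21 became 3595 with DESeq2, 2626 with limma, and 521 and 935 on the plates. The 42 under hyperoxia became 781, 157, 0 and 5. In airway SM the 152 from P7 to P21 became 1169 with DESeq2, 41 with limma, 60 with only the mice compared, and 18 and 35 on the plates. DESeq2 called 1944 genes instead of 1048 between adventitial and alveolar fibroblasts and 3639 instead of 1636 between pericytes and vascular SM. Depth per cell limited the share of cells with Jund.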
